A study of Mus musculus with 40 samples.

Results

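The core clock was examined through 8 genes, the activators Arntl, Clock and Npas2 and the repressors Per1, Per2, Per3, Cry1 and Cry2, which were taken by name as the known core of the loop. They were chosen with earlier results of these data known. The table held 9 transcripts of 7 of these 8 genes among 6831 transcripts of 5849 genes. Arntl, Npas2, Per1, Per2 and Cry2 had 1 transcript each and Clock and Per3 had 2 each, whereas Cry1 was not analysed here. RNA had been sequenced from the cortex of 40 male C57BL/6 mice, each 12 weeks old, in 4 groups of 10 by the sample labels, although the series' design text gives 4 samples per group. The groups were saline sham, memantine sham, saline HF-HI and memantine HF-HI, where HF-HI is high-frequency head impact and memantine is a blocker of NMDA-type glutamate receptors. Drug or saline was injected 1 h before every impact or sham session, so the saline groups carried the injection too, and the methods state that sham mice were anaesthetised and handled like the impact mice. Tissue was taken 24 h after the last session, and the hour of the day was not given in the sources used here.

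The clock is a feedback loop in gene transcription that runs in nearly every cell. BMAL1, the protein of Arntl, pairs with CLOCK or its relative NPAS2, binds E-box DNA and switches on the Per and Cry genes, whose proteins then return to the nucleus and block that pair. In cortex the rhythm is set by signals from the suprachiasmatic nucleus, and Per1 and Per2 also respond acutely to neuronal activity and to glucocorticoid hormones. Arntl and the Per genes peak at opposite times of the cycle, so a single sampling time shows a level and not a rhythm.

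The clock loop is known to act through short DNA motifs, and stretches around the start sites of Per1, Per3 and Arntl that hold such letters are shown for that reason. In mouse build GRCm38.p6, the RefSeq table gave windows of 300 bases, with 250 before and 50 after each start site, for 7 of the 8 genes but not for Per2. The letters searched on both strands were CACGTG (E-box, found in 7.15% of all 32851 windows), TTANGTAA (D-box, 2.32%), AGGTCA (core of the sites of ROR and REV-ERB receptors, 16.3%) and TGACGT (core of the cAMP response element, 7.51%). No motif overlapped another in the stretches printed here. Capitals mark a motif, and the strand is that of the gene. The Per1 stretch before its upstream start site, chr11:69098699-69098948 on the plus strand, held an E-box that begins at base -166 and an AGGTCA on the opposite strand at base -137. The stretch before the downstream Per1 start site, chr11:69099902-69100151 on the plus strand, held a TGACGT at base -132. The Per3 stretch, chr4:151044666-151044915 on the minus strand, held 2 D-boxes, at bases -205 and -158. For Arntl the only motif lay after the start site, at base 32, and the 30 bases around it are chr7:113207530-113207559 on the plus strand.
Per1 upstream: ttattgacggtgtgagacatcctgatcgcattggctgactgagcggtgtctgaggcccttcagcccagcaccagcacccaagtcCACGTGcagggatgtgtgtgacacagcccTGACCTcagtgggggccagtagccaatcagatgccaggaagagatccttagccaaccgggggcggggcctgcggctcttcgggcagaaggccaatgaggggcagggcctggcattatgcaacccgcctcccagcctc
Per1 downstream: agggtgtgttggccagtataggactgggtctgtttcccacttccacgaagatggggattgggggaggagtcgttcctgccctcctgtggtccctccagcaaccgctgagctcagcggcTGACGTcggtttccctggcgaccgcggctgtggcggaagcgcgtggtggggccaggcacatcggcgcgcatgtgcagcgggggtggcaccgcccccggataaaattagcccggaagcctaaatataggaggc
Per3: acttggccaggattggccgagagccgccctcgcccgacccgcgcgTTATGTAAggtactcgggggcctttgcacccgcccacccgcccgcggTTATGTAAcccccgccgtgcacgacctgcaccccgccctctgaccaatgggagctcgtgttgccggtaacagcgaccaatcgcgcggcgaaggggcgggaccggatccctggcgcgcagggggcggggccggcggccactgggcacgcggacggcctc
Arntl: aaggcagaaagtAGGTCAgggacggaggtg
The Npas2 and Cry2 windows held none of the 4 motifs, the Cry1 window held an E-box at base -60, and 1 of the Clock windows held an AGGTCA on the opposite strand at base -119. A match is a run of letters and was not measured as a bound site in these samples.

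Reads summed over the table ran from 13322404 to 17529644 per library, which puts counting error at a coefficient of variation of 4.16% for the least abundant member, Per3 NM_001289877, and 1.95% for the most abundant, Cry2. Values below are normalised read counts, which are the deposited values returned to the count scale, unless a difference is said to be on the deposited scale. A bulk count cannot tell fewer cells of a type from less RNA per cell. All 8 excitatory cortical marker genes looked for were in the table, which lists abundant transcripts only, and 0 of 7 markers of the suprachiasmatic nucleus and hypothalamus were. Of 14 striatal marker genes 11 were present, and the summed count of their 18 transcripts was 44441 ± 5882 in saline sham, 44514 ± 5554 in memantine sham, 38693 ± 3447 in saline HF-HI and 42867 ± 5181 in memantine HF-HI (SD, 10 libraries each). That sum was lower in saline HF-HI, where 8 of the 18 transcripts had an unadjusted p under 0.05 against saline sham, all of them lower, and in memantine sham 0 of 18 did (limma). Of all transcripts, 9.53% passed in saline HF-HI and 7.51% in memantine sham.

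In GRCm38, Arntl lies at chr7:113178471-113314126, Npas2 at chr1:39193702-39363240 and Per1 at chr11:69095108-69109965, all on the plus strand. Clock lies at chr5:76209868-76305603, Per2 at chr1:91415977-91459351, Per3 at chr4:150997018-151044707 and Cry2 at chr2:92403646-92434085, all on the minus strand, and the counted unit was the spliced transcript with its untranslated regions. Per length of transcript, Cry2 was the most abundant member and Npas2 the least. Over the 40 libraries Cry2 had 661 ± 53.7 normalised counts per kb and Clock, with its transcripts added, 492 ± 62.5 (mean ± SD). Per1 followed with 291 ± 68.1 counts per kb, Arntl with 267 ± 27.8, Per2 with 243 ± 45.1, Per3 with 223 ± 33.7 and Npas2 with 193 ± 15.6. Neighbours from Per1 down to Npas2 differed by less than the larger of their SDs, whereas Cry2 and Clock stood above the rest by more than that.

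**Figure D1:**
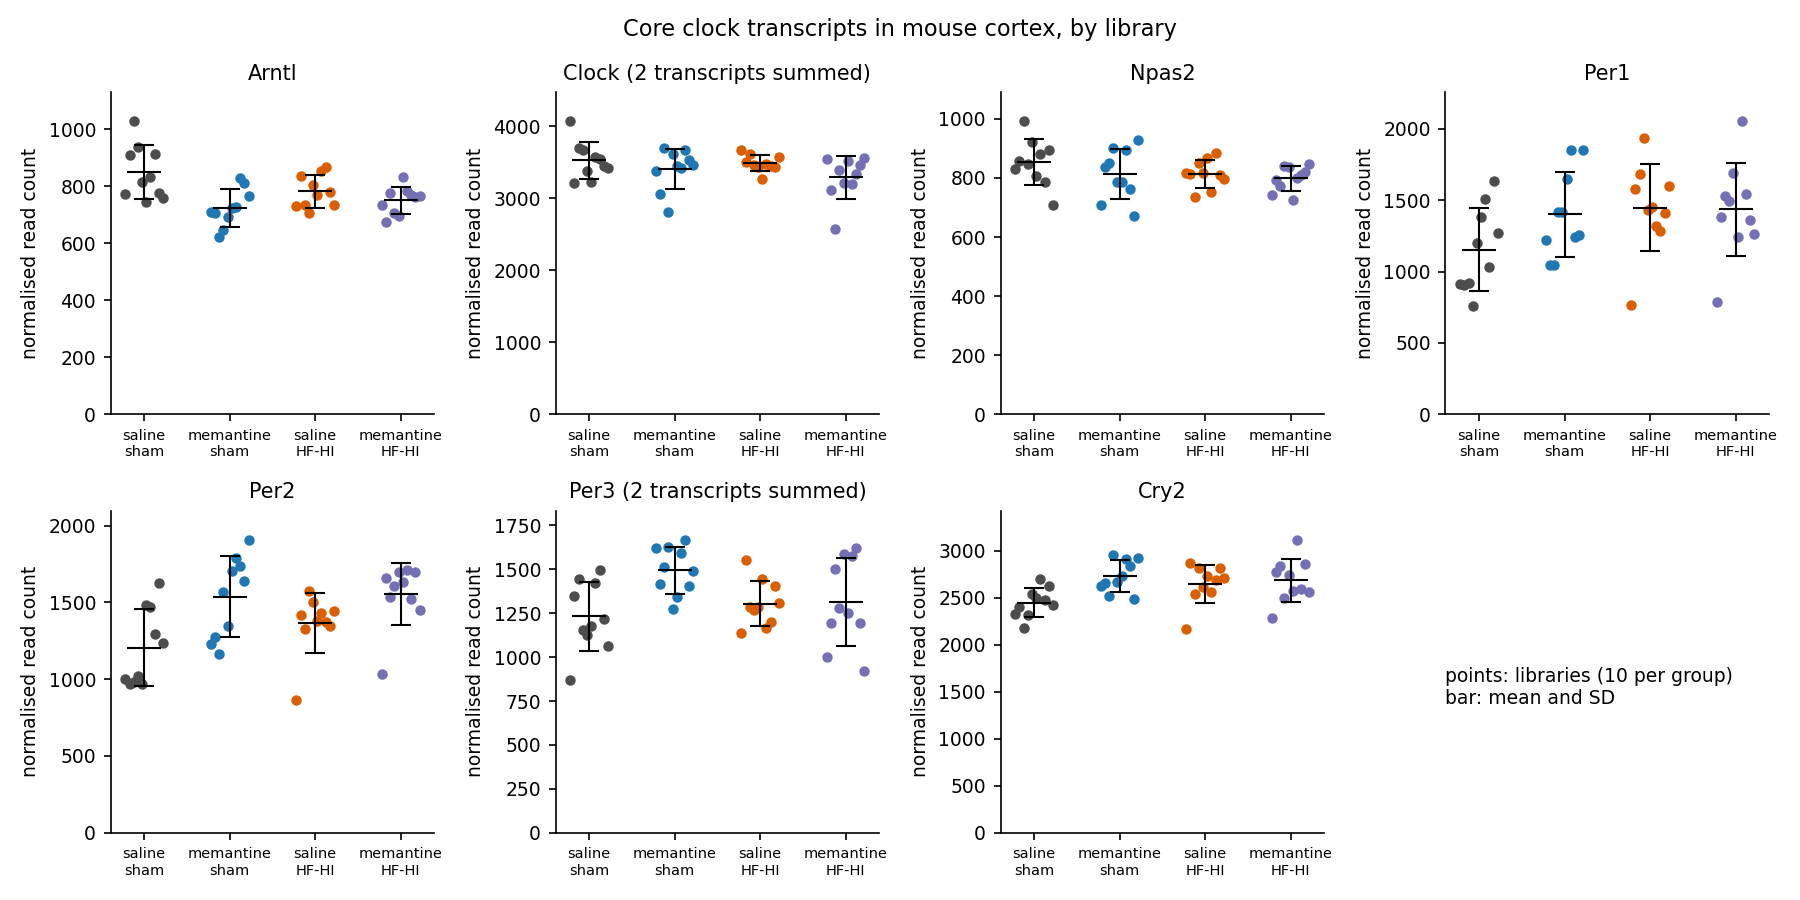
Normalised read count (vertical axes, from 0) of each core clock gene in each library of the 4 groups (horizontal axes), with points for the 10 libraries of a group in the order of their numbers and bars for the mean and SD. Arntl was lowest in memantine sham, and Per2 was lowest in saline sham, where 5 libraries lay between 970 and 1024.

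The first comparison asked what memantine did without head impact. In memantine sham, the repressors Per2 and Cry2 were higher and the activator Arntl was lower than in saline sham at an unadjusted p under 0.05. These were 3 of the 9 core clock transcripts, 2 higher and 1 lower, and 7.51% of all 6831 transcripts passed that criterion in the same comparison. At a Benjamini-Hochberg adjusted p under 0.1, limma called 0 of the 9 members and 0.0293% of all transcripts. The median log2 change in count was 0.16 over the 9 members and 0.00 over all transcripts.

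Arntl, whose protein BMAL1 is the subunit the clock cannot run without, ranged from 743 to 1027 in saline sham (median 823) and from 622 to 828 in memantine sham (median 717). The ranges overlapped, but 10 of the 10 memantine sham libraries lay under the saline sham mean of 848 ± 94.1, and 7 lay under its lowest library. The mean in memantine sham was 723 ± 65.2 (SD, n = 10), a log2 change in count of -0.23. On the deposited scale the difference was -0.082 with an SE of 0.020 (limma, p = 0.000197, adjusted p = 0.281 over all transcripts), and a two-sided permutation test of Arntl alone gave p = 0.00238.

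Per2, a repressor whose transcript also answers to activity and stress signals, ranged from 970 to 1624 in saline sham (median 1130) and from 1164 to 1908 in memantine sham (median 1606). The mean was 1206 ± 251 in saline sham and 1537 ± 263 in memantine sham, and 9 of 10 memantine sham libraries lay above the saline sham mean. The log2 change in count was 0.35 (limma, p = 0.00245, adjusted p = 0.462), and the permutation test of Per2 gave p = 0.0117. Cry2, which with Cry1 encodes the CRY repressors, ranged from 2175 to 2701 in saline sham (median 2449) and from 2483 to 2949 in memantine sham (median 2694). All 10 memantine sham libraries exceeded the saline sham mean of 2446 ± 154, and their own mean was 2727 ± 168. This was a log2 change of 0.16 (limma, p = 0.00199, adjusted p = 0.462).

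Per3, the PER protein that the loop can do without, is listed as a pair of transcripts, NM_001289877 and NM_011067, which share most of their sequence, so the reads of each are uncertain and their sum is the safer value. The sum ranged from 872 to 1499 in saline sham (median 1197) and from 1274 to 1669 in memantine sham (median 1502). Its mean was 1495 ± 133 in memantine sham against 1233 ± 196 in saline sham, with p = 0.00247 in a limma fit to counts summed by gene (adjusted p = 0.375) and p = 0.00254 in a permutation test. Neither transcript alone passed (p = 0.214 and 0.0888), although 8 and 9 of 10 memantine sham libraries lay above the saline sham means of the first and second. Without saline HF-HI library 2, which enters the fit through the shared spread and had 0 counts of NM_001289877, both passed in this comparison (p = 0.0262 for Per3 NM_001289877 and 0.0425 for Per3 NM_011067). Per1, which activity and hormones induce quickly, ranged from 762 to 1635 in saline sham and from 1045 to 1854 in memantine sham, with means of 1153 ± 292 and 1399 ± 298. The ranges overlapped widely, and the difference did not pass (p = 0.0656). Excitatory cortical markers moved a little in the same comparison, with 2 of 9 transcripts higher at an unadjusted p under 0.05, against 7.51% of all transcripts. Their summed count was 40230 to 56873 in saline sham and 44801 to 60285 in memantine sham.

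The remaining activators, which share the role of BMAL1's partner, did not pass in this comparison. Npas2 had 853 ± 78.2 in saline sham and 812 ± 84.5 in memantine sham, and 7 of 10 libraries lay below the saline sham mean (p = 0.177). Clock, summed over its transcripts, had 3523 ± 251 and 3407 ± 278, with p = 0.301 in the fit by gene.

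The second comparison asked what head impact did without the drug. In saline HF-HI, Per1 and Cry2 were higher and Arntl was lower than in saline sham at an unadjusted p under 0.05, which was again 3 of 9 transcripts, 2 higher and 1 lower. Across all transcripts 9.53% passed, and none of the members was among the 0.205% that passed at an adjusted p under 0.1 (limma). The saline sham libraries serve in both of these comparisons, so their results are not independent. Per1 rose from 1153 ± 292 to 1446 ± 306, with a range of 765 to 1932 and a median of 1443 in saline HF-HI (log2 change 0.33, p = 0.0336, adjusted p = 0.486), and 9 of 10 libraries exceeded the saline sham mean. The permutation test of Per1 alone gave p = 0.0551, short of that threshold. Cry2 was 2649 ± 202 in saline HF-HI, between 2164 and 2865 with a median of 2695 (log2 change 0.11, p = 0.0211, adjusted p = 0.445), and 9 of 10 libraries were above the saline sham mean.

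Arntl was 781 ± 56.7 in saline HF-HI, between 705 and 867 with a median of 774, and 8 of 10 libraries were under the saline sham mean (log2 change -0.12, p = 0.0395, adjusted p = 0.491). Its permutation test gave p = 0.0671. Per2 ranged from 862 to 1578 in saline HF-HI (median 1400, mean 1366 ± 192), and its log2 change of 0.18 did not pass (p = 0.101). Leaving out each library in turn left 0 to 4 members called here, with 0 or 1 without saline sham library 2, 3 or 4 or saline HF-HI library 3, 4 or 10. With the striatal marker mean as a covariate, 0 of the 9 members passed in this comparison (Per1 p = 0.0709, Cry2 p = 0.0717, Arntl p = 0.065), whereas the 3 calls in memantine sham against saline sham all held. Among all 6831 transcripts, 375 passed for saline HF-HI against saline sham with this covariate and 651 without it. In memantine sham against saline sham 539 passed with it and 513 without it. The differences of the members in saline HF-HI themselves moved little. On the deposited scale Per1, Cry2 and Arntl had 0.136, 0.055 and -0.042 with the covariate and 0.146, 0.065 and -0.043 without it.

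Under the drug, head impact moved no member past this threshold. In memantine HF-HI against memantine sham, 0 of 9 transcripts had an unadjusted p under 0.05 (limma), where 4.61% of all transcripts did and 0.0146% had an adjusted p under 0.1. Between the HF-HI groups, memantine against saline, the count was again 0 of 9, against 3.91% of all transcripts, and 0% of all transcripts had an adjusted p under 0.1. Means in memantine HF-HI were 750 ± 47.5 for Arntl, 1436 ± 327 for Per1, 1556 ± 203 for Per2 and 2683 ± 230 for Cry2. Summed over its transcripts, Per3 was 1314 ± 249 in memantine HF-HI, below the 1495 ± 133 of memantine sham at p = 0.0284 in the fit by gene (adjusted p = 0.961), while neither Per3 transcript passed alone. Per2 lay between 1034 and 1711 in memantine HF-HI with a median of 1620, and 6 of its 10 libraries exceeded the highest saline HF-HI library, yet the difference of 0.19 in log2 count did not pass (p = 0.0832).

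The interaction asks whether head impact acted differently under memantine and under saline. It had an unadjusted p under 0.05 for 2 of 9 members, Arntl and Cry2, where 3.73% of all transcripts passed, and 0% of all transcripts passed at an adjusted p under 0.1 (limma). For Arntl the change with impact was -0.12 in log2 count under saline and 0.052 under memantine, a difference of 0.17 (p = 0.0362, adjusted p = 0.999). For Cry2 it was 0.11 under saline and -0.024 under memantine, a difference of -0.14 (p = 0.044, adjusted p = 0.999). Fitted by gene, Per3 also had an interaction p under 0.05 (p = 0.0267). Leaving out each library in turn left 0 to 2 of the 9 transcripts called in the interaction, and Arntl kept its call in 29 of 40 such fits and Cry2 in 20.

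**Figure D2:**
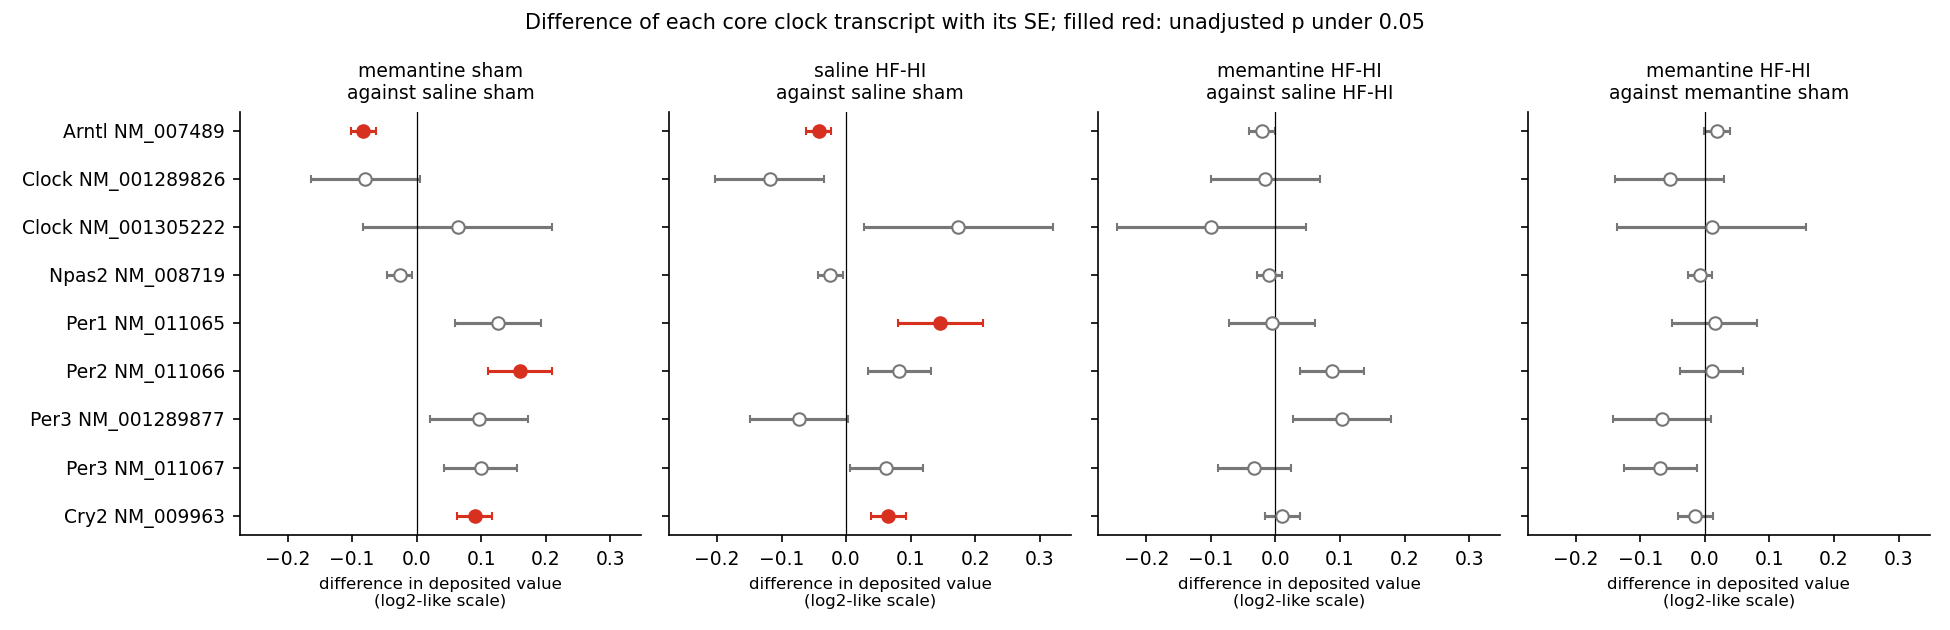
Difference in deposited value (horizontal axes, log2-like scale) of each of the 9 core clock transcripts in 4 comparisons, with bars for the SE from the limma fit and filled red points where the unadjusted p was under 0.05. Red points are 3 in each comparison against saline sham and 0 in both comparisons of memantine HF-HI.

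Beside the members, some genes that the clock drives or that tune it were also higher in memantine sham, chief among them Dbp and Nr1d2. The wider list held 32 clock genes, of which 20 had 25 transcripts in the table. In memantine sham against saline sham, 4 of the 25 had an unadjusted p under 0.05, all higher, against 7.51% of all transcripts, and 21 did not pass. Of the 4, 2 transcripts, Dbp and Nr1d2, had an adjusted p under 0.1, which were the 2 transcripts of the whole table that passed it. Dbp, a D-box activator whose own transcription is driven by CLOCK and BMAL1, ranged from 868 to 1132 in saline sham and from 1176 to 1597 in memantine sham without overlap (log2 change 0.46, limma p = 1.4e-08, adjusted p = 9.59e-05). Nr1d2, which encodes the Arntl repressor REV-ERB beta, ranged from 3376 to 4068 and from 4109 to 4626, again without overlap (log2 change 0.17, p = 9.36e-06, adjusted p = 0.032). Tef NM_153484, a relative of Dbp, was higher by 0.47 in log2 count (p = 0.00036), and Hlf, another D-box activator, by 0.20 (p = 0.00108). The other Tef transcript, NM_017376, went the other way, from 1962 to 1310 (log2 change -0.58, limma p = 0.077). The rise of Tef NM_153484 is therefore given for that transcript only, and no value for Tef summed over its transcripts is given here. Nr1d1, the sister gene of Nr1d2, was 828 ± 145 in saline sham and 928 ± 125 in memantine sham and did not pass (p = 0.0971).

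With impact and no drug, 4 of the 25 wider transcripts passed against saline sham, all higher, where 9.53% of all transcripts passed. The smallest p-values were those of Hlf (log2 change 0.17, p = 0.00428), Nr1d2 (0.10, p = 0.00619) and Bhlhe40, an E-box repressor that neuronal activity induces (0.25, p = 0.00915). Dbp was the fourth (0.17, p = 0.0149), and none had an adjusted p under 0.1. Between the drug groups with impact, 3 of 25 were higher in memantine HF-HI, against 3.91% of all transcripts, and Dbp led them with 1295 ± 94.5 against 1134 ± 134 (log2 change 0.19, p = 0.00425). The others were Rora NM_013646, an activator of Arntl (p = 0.0205), and Tef NM_017376 (p = 0.0442). For both genes the other transcript was lower there and did not pass. Rora NM_001289916 had 3029 against 3665 (limma p = 0.228) and Tef NM_153484 had 4937 against 5318 (p = 0.327). The rises are therefore given for Rora NM_013646 and Tef NM_017376 only, and no summed values of Rora or Tef are given here. In memantine HF-HI against memantine sham, where 4.61% of all transcripts passed, Tef NM_017376 was higher (p = 0.00375), Tef NM_153484 lower (p = 0.00513) and Rora NM_013646 higher (p = 0.0334). The transcripts of Tef moved in opposite directions, and for a gene counted as several transcripts the split between them is uncertain. The interaction had an unadjusted p under 0.05 for 5 of 25, against 3.73% of all transcripts, with the smallest for Tef NM_153484 (p = 0.0013), Dbp (p = 0.00563) and Tef NM_017376 (p = 0.00893), followed by Nr1d2 (p = 0.0124) and Rora NM_013646 (p = 0.0436). In that order the differences in log2 count were -0.58, -0.27, 1.20, -0.13 and 0.82, so the Tef transcripts were opposed in sign.

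The question of whether clock genes varied together from mouse to mouse was put to the 21 pairs of the 7 genes, over 40 libraries with the group means removed. Per1, Per2 and Cry2 varied together, and 5 of 21 pairs had an adjusted permutation p under 0.05, 4 positive and 1 negative. Per1 and Per2 had a Pearson r of 0.83 and a Spearman rho of 0.73 (permutation p = 1e-05, the smallest the resamples could give; adjusted 7e-05 and 0.000105). The r stayed between 0.78 and 0.90 within each of the 4 groups and was 0.74 without the 2 libraries farthest from the median of Per1. Per1 and Cry2 had r = 0.79 and rho = 0.70, and 0.68 without the 2 farthest (permutation p = 1e-05, adjusted 7e-05 and 0.000105). Per2 and Cry2 had r = 0.73 and rho = 0.65 (permutation p = 1e-05 and 6e-05, adjusted 7e-05 and 0.00042), and r = 0.59 without the 2 farthest. Cry2 also varied with Per3 (r = 0.44, rho = 0.42, adjusted permutation p = 0.0289 and 0.0442) and against Clock (r = -0.44, rho = -0.53, adjusted permutation p = 0.0289 and 0.00368), with r = 0.44 and -0.41 without the 2 farthest. Both fell short without the libraries numbered 1, which had low Per1, Per2 and Cry2 in the HF-HI groups (adjusted p = 0.289 and 0.169, 36 libraries).

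Arntl showed no such relation with Per2. Its r with Per2 was 0.030 over 40 libraries and its rho 0.051 (permutation p = 0.867 and 0.775), with -0.50 in saline sham, 0.63 in memantine sham, 0.22 in saline HF-HI and 0.012 in memantine HF-HI. No pair that held Arntl or Npas2 passed the adjustment, although with the library number as a block Arntl and Per1 did (r = -0.42, adjusted permutation p = 0.0411), and their r within saline sham was -0.66. The log2 ratio of Per2 to Arntl, which sets the opposed arms of the loop against each other, ranged from -0.061 to 1.07 in saline sham (median 0.44) and from 0.79 to 1.32 in memantine sham (median 1.04). It ranged from 0.24 to 1.16 in saline HF-HI (median 0.82) and from 0.49 to 1.30 in memantine HF-HI (median 1.06).

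**Figure D3:**
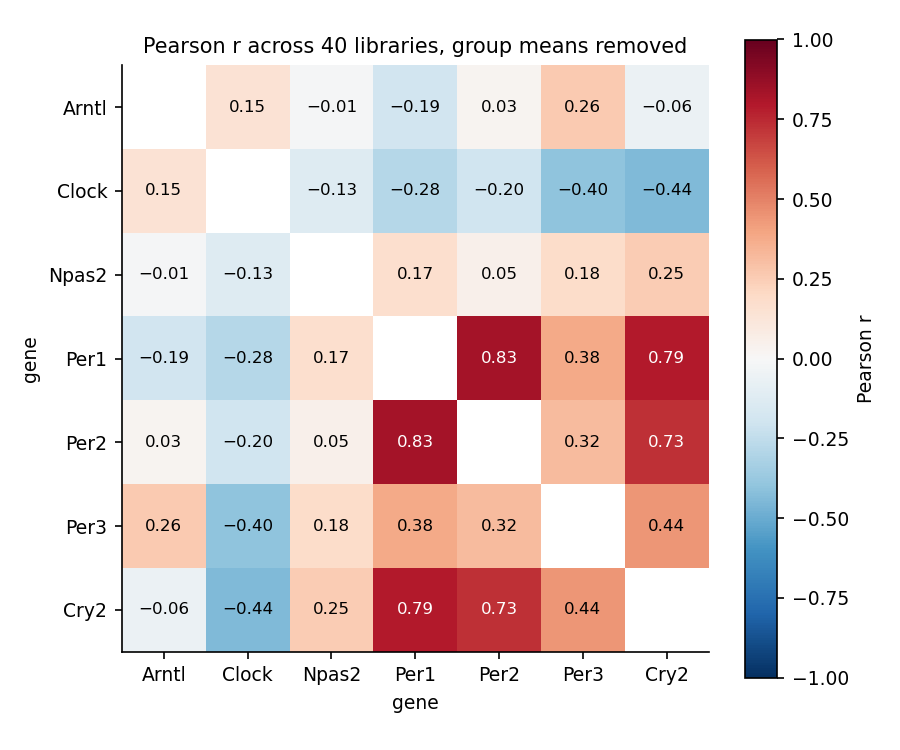
Pearson r (colour scale and figures in the cells) between the log2 counts of each pair of the 7 core clock genes over 40 libraries, with group means removed. Per1, Per2 and Cry2 form a block with r between 0.73 and 0.83, and the Arntl cells lie between -0.19 and 0.26.

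Per2 was closest to immediate early genes, the transcription factors and synaptic genes that neurons switch on within minutes of activity. The 5 transcripts most like Per2 among non-members, by Pearson r over 40 libraries with group means removed, were those of Arc (r = 0.89), Nr4a1 (0.88), Egr1 (0.87), Bhlhe40 (0.86) and Irf2bp2 (0.82). The 5 least like it were those of Bsg (-0.70), Zc3h6 (-0.65), Iws1 (-0.64), Rab3gap1 (-0.64) and Ankrd28 (-0.63). Arntl had weaker likenesses, with the highest for Os9 (0.58), Lrrk2 (0.57), Rgs4 (0.55), Spred1 (0.54) and Cop1 (0.54). Among the lowest for Arntl were Dnajb9 (-0.60), Dbp (-0.59), Dzank1 (-0.56) and Zfp827 (-0.50). These r are given as a ranking, with no test.

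The immediate early list held 13 genes, of which Arc, Dusp6, Egr1, Ier5, Junb and Nr4a1 had 7 transcripts in the table. Their summed count was 8686 ± 2238 in saline sham, 9858 ± 3366 in memantine sham, 12310 ± 2482 in saline HF-HI and 10253 ± 2140 in memantine HF-HI. At an unadjusted p under 0.05, 6 of the 7 were higher in saline HF-HI than in saline sham, 0 of 7 were in memantine sham, and 2 of 7 were lower under memantine than under saline when impact was given. Of all transcripts, 9.53%, 7.51% and 3.91% passed in those comparisons, in that order. Per2 followed that sum with r = 0.90 and rho = 0.87 over 40 libraries, and with r = 0.85 without the 2 farthest. Arc, Nr4a1 and Egr1, seen above as most like Per2, are part of the sum, so these values describe the same likeness and carry no test. Within groups the r was 0.90 in memantine sham, 0.96 in saline HF-HI and 0.87 in memantine HF-HI. In saline sham it was 0.94, but there the sum fell into separate clusters, with 6 libraries between 6664 and 7639 and 4 between 11087 and 11385. Per1 followed the sum with r = 0.70 and Cry2 with r = 0.67 (rho = 0.59 and 0.61), and without the 2 farthest libraries r was 0.54 and 0.50.

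Apart from these 3, 8 of 70 relations of the 7 genes with 10 lists had an adjusted p under 0.05, and they were examined after the likeness of Per2 had been seen. Glucocorticoid target genes, 7 of 10 in the table, varied with Per2 (r = 0.76, rho = 0.71), with Per1 (r = 0.69, rho = 0.67) and with Cry2 (r = 0.50, rho = 0.43), and r was 0.71, 0.63 and 0.42 without the 2 farthest libraries. Their summed count was 9212 ± 2684 in saline sham and 8848 ± 1729 in memantine sham. In that comparison 2 of 7 were lower at an unadjusted p under 0.05, where 7.51% of all transcripts passed. Excitatory cortical markers varied with Cry2 (r = 0.72, rho = 0.73), Npas2 (r = 0.59, rho = 0.56) and Per1 (r = 0.55, rho = 0.45), with r of 0.69, 0.57 and 0.47 without the 2 farthest. The last 2 relations were negative, Per2 with microglial markers (r = -0.51, rho = -0.53) and Npas2 with thalamic markers (r = -0.45, rho = -0.58), with r of -0.55 and -0.42 without the 2 farthest. Of the microglial list 5 of 7 genes were in the table, and of the thalamic list 2 of 6, Prkcd and Rora. In saline sham the Rora transcripts averaged 3159 and 1270 of the 5116 counts of the thalamic list. The second relation is thus largely one with Rora, which is also on the wider clock list. The adjusted permutation p of these 8 r lay between 0.000233 and 0.0284. With the excitatory marker mean as a covariate in limma, Arntl, Per2 and Cry2 still passed in memantine sham against saline sham (p = 0.000563, 0.0146 and 0.015). Npas2 was then lower in that comparison too (p = 0.0173). For saline HF-HI against saline sham, Per1, Cry2 and Arntl then no longer passed (p = 0.102, 0.0729 and 0.0569), and Npas2 was again lower (p = 0.0355).

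Set beside the immediate early genes of the same library, Per2 was higher in both memantine groups than in the saline groups. Taken to a common immediate early sum by the shared slope of 0.55 on log2 scales, Per2 ranged from 1149 to 1326 in saline HF-HI (median 1197) and from 1380 to 1751 in memantine HF-HI (median 1514). These ranges did not overlap, whereas the unadjusted counts did. In the sham groups it ranged from 1166 to 1499 under saline (median 1245) and from 1386 to 1850 under memantine (median 1555), with an overlap. In the limma fit with the immediate early mean as a covariate, Per2 was higher in memantine HF-HI than in saline HF-HI by 0.16 on the deposited scale with an SE of 0.023 (p = 5.75e-08, adjusted p = 0.000393). It ranked 1 of 6831 by p, and it was the only transcript with an adjusted p under 0.1, 0.0146% of the table, where 5.86% had an unadjusted p under 0.05. Without the covariate this difference did not pass (limma, p = 0.0832, adjusted p = 0.9995).

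In memantine sham against saline sham the same fit gave a Per2 difference of 0.12 with an SE of 0.023 (p = 9.2e-06, adjusted p = 0.0235), at rank 2, where 0.0586% of transcripts had an adjusted p under 0.1 and 6.43% an unadjusted p under 0.05. For saline HF-HI against saline sham, Per1 and Cry2 no longer passed with this covariate (p = 0.899 and 0.664), and the Per2 difference turned from 0.083 without the covariate to -0.053 with it (p = 0.0428). The covariate was added after its relation to Per2 had been seen, and no other transcript had a covariate picked for it. The ranks of Per2 are therefore a description and not a fair comparison with other transcripts. Head impact moves the covariate, and between the HF-HI groups the immediate early sum was itself lower under memantine (10253 ± 2140 against 12310 ± 2482). These values thus compare Per2 relative to those genes and not its level. Leaving out each of the 6 genes of the covariate in turn kept the adjusted p between 0.000233 and 0.00193 with impact and between 0.0212 and 0.0593 without it. Leaving out each library in turn kept it between 0.000103 and 0.00316 with impact and between 0.00476 and 0.117 without it, the last without memantine sham library 1. With the glucocorticoid target mean as the covariate instead, Per2 passed in memantine sham against saline sham (p = 1.9e-05, adjusted p = 0.0432) and, without adjustment only, between the HF-HI groups (p = 0.0339, adjusted p = 0.999).

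**Figure D4:**
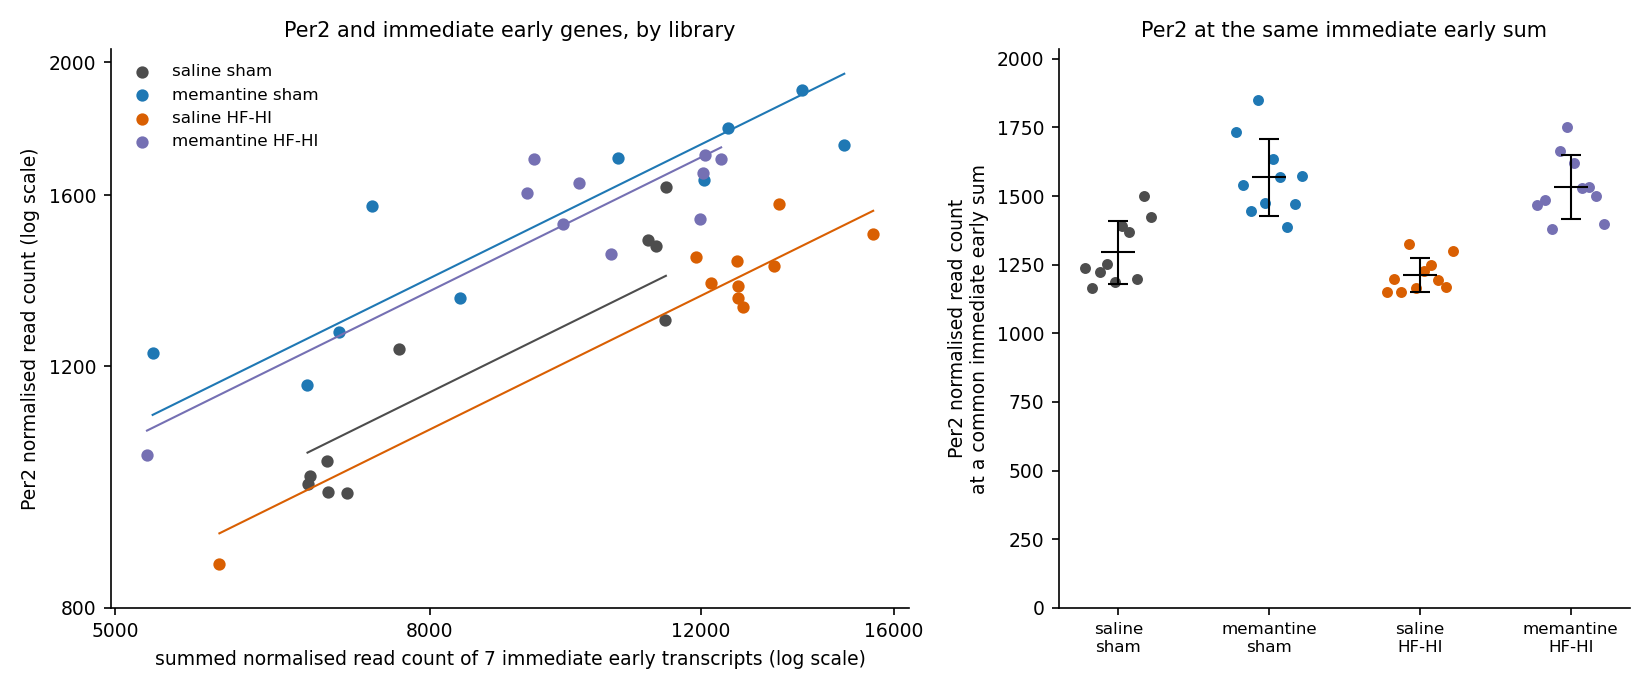
Left, Per2 normalised read count against the summed normalised read count of 7 immediate early transcripts (log scales) in 40 libraries, with lines of a common slope of 0.55 through each group; right, Per2 taken to a common immediate early sum, with points for libraries and bars for the mean and SD. The memantine lines lie above the saline lines, and on the right the saline HF-HI libraries (1149 to 1326) lie below all memantine HF-HI libraries (1380 to 1751).

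The low libraries in this relation carried particular numbers. Library 1 had the lowest Per2 count of both HF-HI groups (862 and 1034), the lowest Per1 (765 and 790), the lowest Cry2 (2164 and 2288) and an immediate early sum of 5842 and 5242. Without both of these libraries 4 of 9 members had an unadjusted p under 0.05 in memantine sham against saline sham and 3 for saline HF-HI against saline sham, where Per2 replaced Arntl. Without all 4 libraries numbered 1 these counts were 4 and 4. Per2 then passed for saline HF-HI against saline sham (limma, p = 0.0216, adjusted p = 0.287) and between the HF-HI groups (p = 0.0484, adjusted p = 0.976). The share of all transcripts that passed was not counted in these fits, so whether the members stood out there was not tested.

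Clock transcripts traded places in a few libraries, and their sum varied less than either. NM_001289826 made up 31.3% to 60.9% of the Clock count in 35 of the 40 libraries, and 68.2% in saline HF-HI library 2. In saline sham libraries 2 and 6, memantine sham library 3 and memantine HF-HI library 3 it made up 90.9%, 91.3%, 92.9% and 90.7%, and NM_001305222 was down to 293, 281, 264 and 239 counts against group medians of 1921 to 2037. The summed Clock count in those 4 libraries was 3216, 3229, 3696 and 2572, the lowest of its group in the first and last and the highest in the third. The summed count had an SD of 112 to 296 counts within groups, against 336 to 764 for NM_001305222. Neither Clock transcript passed in any comparison, and the sum did not pass in the fit by gene (p between 0.0745 and 0.772). The permutation test of the sum gave p = 0.0455 between the HF-HI groups, where memantine HF-HI was lower (3291 ± 296 against 3485 ± 112).

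Per3 showed the same kind of exchange in a single library. In saline HF-HI library 2, NM_001289877 was listed at 0 and NM_011067 at 1552, the highest value of that transcript in any library, and their sum was the highest of its group. In the other 39 libraries NM_001289877 made up 24.8% to 55.3% of the Per3 count. How the counting program divided reads shared by the transcripts of a gene was not tested.

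**Figure D5:**
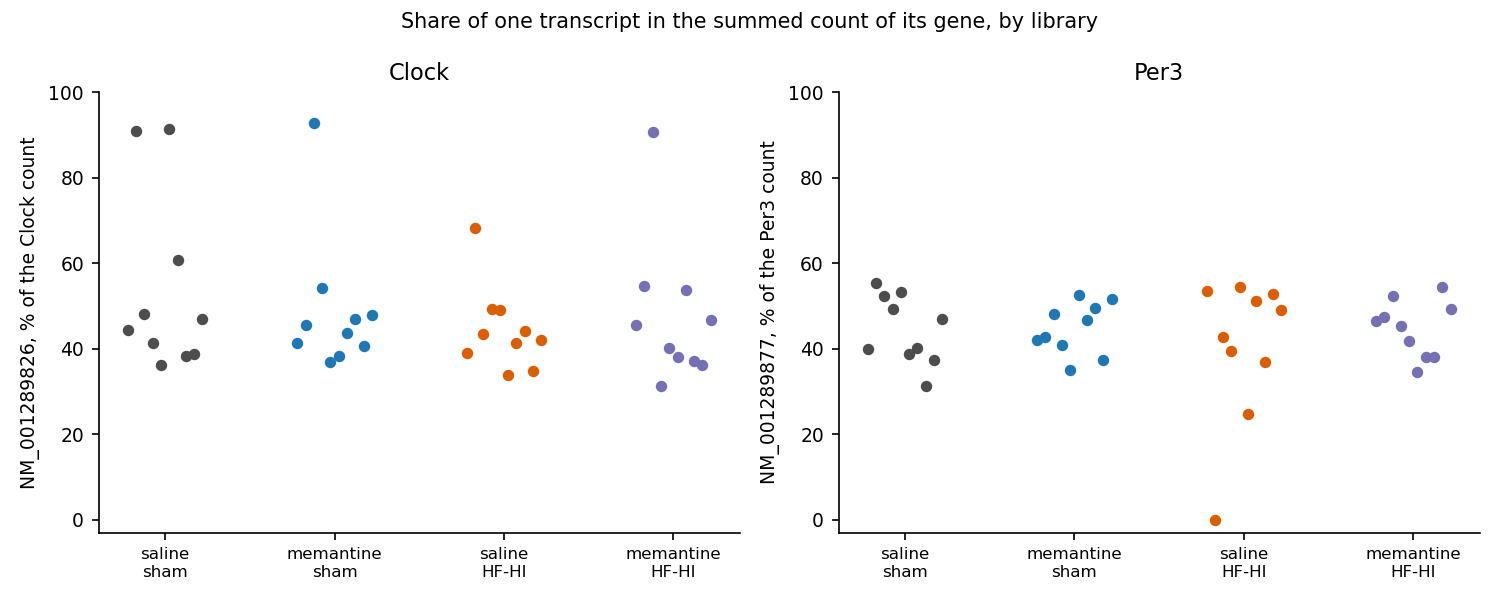
Share (vertical axes, %) of the summed count of Clock taken by NM_001289826 (left) and of Per3 taken by NM_001289877 (right) in each library of the 4 groups, with a point per library. For Clock, 4 libraries lie between 90.7% and 92.9%, and for Per3 a library lies at 0.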

How the data were processed

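RNA was sequenced from the cortex of 40 mice. Per the methods, ribosomal RNA was depleted and stranded total RNA libraries were aligned with STAR to mouse build mm10 and counted per RefSeq transcript with eXpress, whereas the submitters' processing notes name HISAT2 and StringTie. The authors normalised with DESeq2 and deposited variance-stabilised values, a log2 scale compressed at low counts, where a doubling of the count gives 0.364 at 800 counts and 0.576 at 2600. No transcript in the deposited table had a mean under 549.2 counts, and 99.62% of its transcripts had a symbol in the RefSeq annotation (GRCm38.p6).

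The transformation was inverted with its floor of 10.36 to give normalised read counts. Within 0.1 of a read, 100% of the resulting values under 5000 were whole reads times 1 factor per library, and the size factors ran from 0.859 to 1.141. Each library held 13322404 to 17529644 reads over the table, a depth that speaks to counting error only. The labels do not say that libraries are from separate litters or days, so p-values measure the spread between these libraries.

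Differences were tested with limma 3.58.1 under R 4.3.3 (lmFit, eBayes with trend) on the deposited values of all 6831 transcripts and 40 libraries, with a term per group, 5 two-sided contrasts and Benjamini-Hochberg adjustment over the table. Calls used an unadjusted p under 0.05 and an adjusted p under 0.1, the study's methods naming a P threshold of 0.05 and a Benjamini-Hochberg threshold of 0.1. Both comparisons with saline sham share its libraries. Single genes and pairs of genes were tested with two-sided permutation tests of log2(count + 1) with 100000 resamples, within groups for pairs (scipy 1.17.1, numpy 2.4.6). The procedures were tested on simulated data. The members, the wider clock list, the marker lists and the tests were chosen with earlier results of these data known. Every member was named, as were the 3 wider transcripts with the smallest p under 0.05 in each contrast and the 5 nearest and 5 farthest transcripts to Arntl and to Per2, of which 1 is not reported here. Nr1d1 was named after its values were seen. Alternatives were other scales and normalisations, a filter on low counts, library weights, sums by gene, covariates, a replicate block and leaving out libraries. Left-out libraries numbered 1 and the immediate early, glucocorticoid and excitatory covariates were added after seeing the data.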

Additional observations from a re-analysis of the deposited data

Results flagged for a closer look

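In groups of 10, a library was looked at again where its gap to the next, divided by the range of the group, exceeded the 95% critical value of Dixon's test, which chance alone does in about 5% of groups. Per2 was far below the rest in library 1 of both HF-HI groups, with gaps of 0.65 of the range in saline HF-HI and 0.613 in memantine HF-HI, and Cry2 was far below in saline HF-HI library 1 (0.539). The Clock transcripts stood apart where they traded places. NM_001289826 was far above in memantine sham library 3 (0.811), saline HF-HI library 2 (0.528) and memantine HF-HI library 3 (0.487), and NM_001305222 was far below in the same libraries (0.506, 0.565 and 0.561). The summed Clock count was far below in memantine HF-HI library 3 (0.554), and Per3 NM_001289877 in saline HF-HI library 2 (0.483).

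The response to impact differed between the drug arms at an unadjusted p under 0.05 for Arntl, by 0.17 in log2 count (limma, p = 0.0362), and for Cry2, by -0.14 (p = 0.044), and the adjusted p was 0.999 for both.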

How the results depend on the processing

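Over the alternatives, the calls of Arntl, Per2 and Cry2 in memantine sham against saline sham held in every setting in which they were tested, with p between 6.36e-05 and 0.000664 for Arntl, between 0.0006 and 0.00691 for Per2 and between 0.000719 and 0.00581 for Cry2 when single libraries were left out. The other calls did not all hold, and the cause was not tested. With the striatal marker mean as a covariate, the members called numbered 0 for saline HF-HI against saline sham, 1 (Per2) between the HF-HI groups and 1 (Arntl) in the interaction. With the excitatory marker mean they numbered 1 (Npas2), 1 (Per2) and 0, and with the immediate early mean 1 (Per2) between the HF-HI groups and 1 (Arntl) in the interaction. With that last covariate Per1 and Cry2 lost their calls for saline HF-HI against saline sham (p = 0.899 and 0.664), and the change of Per2 NM_011066 for saline HF-HI against saline sham reversed to -0.053 (p = 0.0428). A mean count of at least 1000 left 1 interaction call, by testing fewer members. Sums by gene gave 1 call, Per3, for memantine HF-HI against memantine sham. Without both HF-HI libraries numbered 1 the interaction had 1 call (Cry2), and without all 4 libraries numbered 1 the comparison between the HF-HI groups had 1 (Per2). Of pairs of genes, 3 passed on deposited values, 3 without both HF-HI libraries numbered 1 and 3 without all 4.

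Leaving out each library in turn gave 3 to 5 calls for memantine sham against saline sham (5 without saline HF-HI library 2), 0 to 4 for saline HF-HI against saline sham, 0 to 1 between the HF-HI groups (1 without memantine HF-HI library 1), 0 for memantine HF-HI against memantine sham, 0 to 2 in the interaction and 3 to 8 pairs. The saline HF-HI calls moved by over 1.5 times without saline sham library 2, 3 or 4 or saline HF-HI library 3, 4 or 10, the pairs without saline sham library 3 or either HF-HI library numbered 1, and the interaction calls without saline sham library 1, 2, 3, 4, 8 or 10, memantine sham library 3, 4, 7, 8 or 10, saline HF-HI library 1, 2, 3, 4, 6, 8, 9 or 10 or memantine HF-HI library 1, 4, 6, 8 or 10. For single transcripts, 40 leave-one-out values and 11 others changed sign while passing in neither fit. In fits with libraries left out or with the excitatory covariate, the share of all transcripts that passed was not counted.

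The replicate block gave 4 calls for memantine sham and 4 for saline HF-HI against saline sham, 1 (Per2) between the HF-HI groups, 0 for memantine HF-HI against memantine sham, 2 in the interaction and 5 pairs, of which Arntl and Per1 (r = -0.42) replaced Per3 and Cry2. The numbers were not taken as pairs, because the correlation of deviations over all transcripts exceeded 0.1 in 4 of 60 same-numbered pairs of libraries (lowest -0.13) and was the best match in 6 of 60. Among all transcripts, counts with an unadjusted p under 0.05 moved by over 1.5 times under the filter (332 for 513, 425 for 651, 155 for 267, 178 for 315 and 138 for 255), with the striatal covariate (375 for 651) and with library weights (513 for 315), and counts with an adjusted p under 0.1 for saline HF-HI against saline sham were 32 with weights, 21 by gene and 0 with the filter or the striatal covariate, for 14.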

Other observations

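Per2 counts followed the library numbers in the sham groups, a pattern noticed in the values and given without a test, since the labels do not say what the numbers mark. In saline sham, libraries 1 to 5 lay between 970 and 1024 and libraries 6 to 10 between 1235 and 1624. In memantine sham, libraries 1 to 5 lay between 1164 and 1571 and libraries 6 to 10 between 1642 and 1908. Within each run of numbers, every memantine sham library was above every saline sham library, although the full groups overlapped. The runs were drawn after these Per2 values had been seen, so this separation is no evidence of a drug effect. In libraries 6 to 10 it was as narrow as 1642 against 1624. The immediate early sum divided the same way in memantine sham, from 5287 to 8369 and from 10602 to 14863. In saline sham it did so only in part. Libraries 1 to 5 lay between 6664 and 7070 and libraries 6 to 9 between 11087 and 11385, but library 10, at 7639, lay near the first run.

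Arntl did not divide in the same sense in both groups. Its libraries 1 to 5 averaged 892 and libraries 6 to 10 averaged 805 in saline sham, and 675 and 771 in memantine sham. In the HF-HI groups library 1 alone stood far below the rest in Per2, at 862 and 1034.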
